A study of Mus musculus with 2 samples.

Results

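Cycling CD8 T cells were described among donor T cells taken from mouse colon in graft-versus-host disease, the attack of transplanted T cells on host tissues. They were the cells with at least 1 Cd8a or Cd8b1 UMI, 0 Cd4 UMIs and 2 or more Mki67 UMIs, a UMI (unique molecular identifier) standing for 1 captured RNA molecule. This gave 478 of 5333 kept cells, or 8.96% (8.21 to 9.76). They were set against the 1698 CD8 cells with 0 Mki67 UMIs, called Mki67-0 cells here, and 215 CD8 cells with exactly 1 Mki67 UMI stood between the classes. Cycling cells of the CD4 class (a Cd4 UMI and neither Cd8 gene) numbered 273, against 1420 Mki67-0 CD4 cells.

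Every class came from the same animals. Lethally irradiated Balb/c recipients had been given 5e+06 bone marrow cells from C57BL/6 donors together with spleen cells holding 800000 alpha beta T cells, and day 21 was the day of colon collection. Colon cells from 5 mice were pooled and sorted on H2-Kb, which marks donor cells, and TCR beta. A droplet RNA library read from the 5' end was made, along with a library of T cell receptors (TCRs) amplified out of that cDNA. The sample titles name CD4 T cells, while the sort held CD8 cells as well. The pool is 1 sample with no ungrafted or disease-free arm, so no test was possible, a clone and a mouse cannot be told apart, and every range after a value is an exact 95% interval for counting error only. Of the kept cells, 5133 had a barcode among the 5990 of the TCR table.

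A T cell that meets its antigen leaves quiescence and passes through G1, S phase, G2 and mitosis. E2F factors switch on DNA replication genes at the start of S phase, and cyclin B with Cdk1 and the kinase Plk1 drives chromosomes through mitosis. Killer CD8 T cells divide to expand a clone and carry perforin and granzymes against target cells, which in this disease include the gut epithelium.

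Mki67, which encodes the Ki-67 protein of dividing cells (chromosome 7, 135689784 to 135716361, minus strand, GRCm38), chose the cells, so its level and every ratio of cycling over Mki67-0 cells below is a description and supports nothing. The members held 2 to 57 Mki67 UMIs with a median of 6. At the limit, the 90 members with exactly 2 Mki67 UMIs carried 33.7 UMIs of mitosis genes per 10000, and the 215 cells just outside with 1 UMI carried 16.7. The cycling share of the CD8 class was 19.99% (18.4 to 21.7), against 14.7% (13.1 to 16.4) in the CD4 class. Another 301 cells had UMIs of both lineages and were in neither class, and 25.6% of them had 2 or more Mki67 UMIs (20.7 to 30.9).

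Of the markers of the label, Cd8a and Mki67 were used by the rule, and Top2a was not. Top2a, the topoisomerase that untangles replicated DNA, had 3258 UMIs in the cycling class and 270 in the Mki67-0 class. With each cell thinned to 2000 UMIs, 63.8% of cycling cells held a Top2a UMI (59.3 to 68.1) and 5.95% of Mki67-0 cells (4.87 to 7.18), and with all UMIs the shares were 85.4% and 11.8%. Cd8a stood at 7.08 UMIs per 10000 in cycling cells and 9.42 in Mki67-0 cells, and Cd3e at 9.41 and 13.5. Markers of other T and natural killer cells were at 0 in part. Of 3 regulatory T markers Foxp3 was at 0, and the list, with Ikzf2 and Il2ra, summed to 1.73 UMIs per 10000 in cycling cells, with UMIs in 295 cells, and 1.65 in Mki67-0 cells. Of 3 natural killer markers Ncr1 was at 0, and the list, which holds Eomes, summed to 0.767 in cycling cells (184 cells) and 0.920 in Mki67-0 cells. Of 5 gamma delta T markers Trdc, Trdv4 and Sox13 were at 0, and the list summed to 0.350 in cycling cells (103 cells) and 0.392 in Mki67-0 cells. The 11 macrophage markers summed to 1.44 UMIs per 10000 in cycling cells and 1.45 in Mki67-0 cells, and a single member held 198 of the 765 UMIs in the cycling class. Cells with 2 or more productive TRB chains, a sign of doublets, made up 5.02% of the cycling class (3.24 to 7.38) and 3.36% of the Mki67-0 class (2.55 to 4.33).

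Cycling cells had more UMIs. They had a median of 10319 UMIs and 3019.5 genes per cell, against 4302.5 UMIs and 1681 genes in Mki67-0 cells, and the mean was 2.29-fold higher. Levels below are therefore UMIs per 10000 UMIs of a class, so a gene at an equal level per 10000 has 2.29-fold more UMIs per cycling cell. With each cell thinned to 2000 UMIs before the classes were set, 7.12% of 2401 CD8 cells were cycling (6.13 to 8.22), and 4.40% of 1160 CD4 cells (3.29 to 5.74). Both are lower than the shares from all UMIs, but thinning can only lower the Mki67 UMIs of a cell. It also reset the lineages, which held 2391 CD8 and 1861 CD4 cells from all UMIs, so the shares are of different sets of cells. The classes thus depend on depth. Ratios are also given for cells of 6000 to 15000 UMIs, 307 cycling and 350 Mki67-0, whose medians were 10099 and 7582.5 UMIs.

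Of 9193 genes with at least 50 UMIs over both CD8 classes, 1522 (16.6%) were higher in cycling cells by 1.5-fold or more and 1266 (13.8%) were lower, with a median log2 ratio of -0.03. In the CD4 class 1366 of 8750 genes (15.6%) were higher and 1368 (15.6%) lower. Among cells of 6000 to 15000 UMIs, 1036 of 7716 genes were higher and 589 lower in the CD8 class. All 1.5-fold counts below use this limit, and each list count is to be read beside these shares of all genes.

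Mitosis genes stood highest of the gene lists. Of 52 measured mitosis and spindle genes, 51 were higher in cycling cells, with a median log2 ratio of 4.62, and 51 were higher among cells of 6000 to 15000 UMIs, at a median of 4.14. Plk1 was counted 425 times in cycling cells and 7 times in Mki67-0 cells, a 94.2-fold higher level per 10000 (45.3 to 236). Cenpf, a kinetochore and nuclear matrix protein, stood at 2.56 UMIs per 10000 in cycling cells and 0.0327 in Mki67-0 cells, 78.4-fold apart (53.7 to 119). Hmmr, a receptor for hyaluronan that also sits on the spindle, was 70.6-fold higher (39.1 to 142) and Tpx2, which activates Aurora A on the spindle, 46.7-fold higher (32.5 to 69.6). Birc5 (survivin) stood at 4.60 UMIs per 10000 in cycling cells, against 0.157 in Mki67-0 cells, and Ube2c, which helps the anaphase-promoting complex mark cyclins for destruction, at 6.39 against 0.396. Pttg1, which encodes securin, was the exception at 0.856 times its Mki67-0 level (0.763 to 0.959).

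The gene with the highest ratio that had UMIs in both classes was Esco2, the acetyltransferase that locks cohesin onto sister chromatids. It had 376 UMIs in cycling cells and 2 in Mki67-0 cells, 292-fold apart per 10000 (80.2 to 2418). Pbk, a mitotic kinase, was 99.9-fold higher (33.7 to 488), Mxd3 84.3-fold (28.4 to 413), and Cdca5 (sororin), which protects cohesin, 64.2-fold (32.2 to 150). Of these, Pbk and Mxd3 had 3 UMIs each in Mki67-0 cells, and their ratios rest on those.

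Replication genes were higher by a smaller factor. Of 50 DNA replication genes 49 were higher in cycling cells, with a median log2 ratio of 2.23, or 1.77 among cells of 6000 to 15000 UMIs with the same count of genes. Pclaf, a PCNA-binding factor, stood at 7.14 UMIs per 10000 in cycling cells and 0.200 in Mki67-0 cells, 35.7-fold apart (30.6 to 42.0). Cdc6, which loads the helicase at origins, was 22.7-fold higher (14.1 to 38.9) and Mcm10, which activates the helicase, 40.0-fold (16.7 to 125). Genes with a clear level in Mki67-0 cells had smaller ratios. Pcna, the sliding clamp, was 3.24-fold higher (2.88 to 3.66), Mcm5 of the helicase 5.92-fold (5.12 to 6.87) and Mcm6 2.56-fold (2.34 to 2.81). Rpa2, of the complex that coats single-stranded DNA, was at 1.22-fold, under the 1.5-fold limit.

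Nucleotide supply, packaging and repair genes were higher as well. Of 23 nucleotide synthesis genes 21 were higher, with a median log2 ratio of 1.23, led by Rrm2 of ribonucleotide reductase at 34.5-fold (26.6 to 45.6). Among cells of 6000 to 15000 UMIs 14 of the 23 were higher. All 26 chromatin and tubulin genes were higher, at a median of 2.39, among them Stmn1, which destabilises microtubules, at 15.9-fold (14.3 to 17.7) and H2afz at 22.5 UMIs per 10000 in cycling cells, against 5.82 in Mki67-0 cells. All 35 measured replication-dependent histone genes of 67 in the matrix were higher, at a median of 3.28. Hist1h1b, a linker histone, stood at 5.70 UMIs per 10000 in cycling cells and 0.165 in Mki67-0 cells. Hist1h2af had 95 UMIs in cycling cells and 0 in Mki67-0 cells, at least 49.2-fold higher when the 0 is set to 3 UMIs. Reads of such near-identical histone copies may have been shared out among them. Of 20 repair and checkpoint genes 16 were higher, while Atm, Atr, Trp53 and Mdm2 lay between 1.05 and 1.27-fold.

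**Figure D1:**
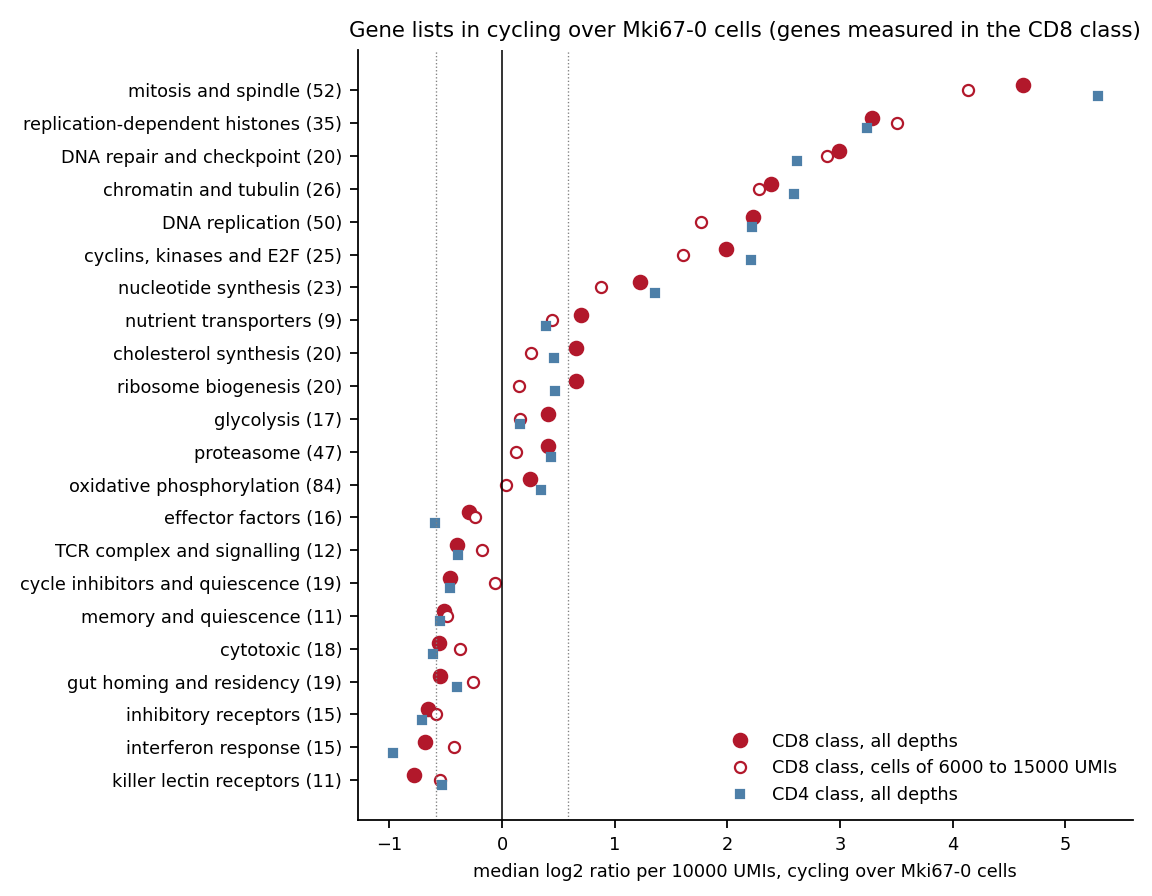
Median log2 ratio of each gene list, cycling over Mki67-0 cells, for the CD8 class at all depths, for CD8 cells of 6000 to 15000 UMIs and for the CD4 class. Dotted lines mark 1.5-fold, and the number of measured genes in the CD8 class follows each list name. The mitosis list stands at 4.62 in the CD8 class and the killer lectin receptor list at -0.78.

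Mitosis and replication genes differed in the letters of their promoters. The promoters of 4 genes of high ratio show the motifs, from 250 bases before the gene start to 25 after it, taken from RefSeq on GRCm38.p6 and written 5′ to 3′ on the gene's strand. Capitals mark a CHR, the element TTTGAA bound by the DREAM and MuvB complexes that time mitotic genes, in Cenpf (chr1:189688062-189688336, minus strand) and Hmmr (chr11:40733413-40733687, minus strand). In Pclaf (chr9:65890073-65890347, plus strand) and Cdc6 (chr11:98907901-98908175, plus strand) they mark an E2F element, TTTNNCGC read on the other strand.
Cenpf: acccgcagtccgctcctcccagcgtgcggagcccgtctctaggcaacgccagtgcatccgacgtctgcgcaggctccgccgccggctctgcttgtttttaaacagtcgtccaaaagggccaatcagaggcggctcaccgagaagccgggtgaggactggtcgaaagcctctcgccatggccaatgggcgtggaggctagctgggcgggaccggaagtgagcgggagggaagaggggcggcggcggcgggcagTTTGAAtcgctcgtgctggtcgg
Hmmr: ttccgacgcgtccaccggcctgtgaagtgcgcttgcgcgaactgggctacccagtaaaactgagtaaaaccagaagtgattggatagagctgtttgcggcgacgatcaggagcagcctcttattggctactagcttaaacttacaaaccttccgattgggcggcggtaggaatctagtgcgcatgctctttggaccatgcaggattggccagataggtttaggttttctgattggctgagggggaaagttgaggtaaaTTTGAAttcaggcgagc
Pclaf: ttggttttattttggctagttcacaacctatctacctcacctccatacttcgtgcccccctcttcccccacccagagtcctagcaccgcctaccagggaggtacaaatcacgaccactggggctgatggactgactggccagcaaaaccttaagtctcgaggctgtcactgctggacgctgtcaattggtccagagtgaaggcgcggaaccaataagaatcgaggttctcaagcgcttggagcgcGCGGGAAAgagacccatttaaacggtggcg
Cdc6: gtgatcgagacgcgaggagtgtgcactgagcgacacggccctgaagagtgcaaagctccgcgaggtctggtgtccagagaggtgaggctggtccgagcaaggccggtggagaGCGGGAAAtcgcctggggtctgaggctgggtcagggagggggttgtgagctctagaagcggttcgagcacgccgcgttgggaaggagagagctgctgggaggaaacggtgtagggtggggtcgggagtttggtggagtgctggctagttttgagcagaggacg

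Both strands of the full windows, from 250 bases before to 50 after each start, were searched in genes with 1 RefSeq entry. A CHR was in 31 of 42 mitosis promoters (73.8%) and in 3 of 33 replication promoters (9.09%), against 12.1% of the 5775 genes with the UMI minimum and 18.5% of 22862 genes in all. An E2F element was in 16 of 33 replication promoters (48.5%) and 5 of 42 mitosis promoters (11.9%), against 10.3% and 5.30% of those backgrounds. The CCAAT box, whose overlap with the others was not counted, was in 29 of 42 (69.0%) and 20 of 33 (60.6%), against 40.2% and 38.2%. A match describes the letters of the window and not a bound site.

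Most cyclins and their partners were higher. Of 25 measured cyclins, kinases and E2F genes 21 were higher and none lower. Ccna2, the cyclin of S phase and G2, stood at 3.68 UMIs per 10000 in cycling cells, against 0.0521 in Mki67-0 cells, 70.6-fold apart (52.2 to 97.8). Ccnb1 of mitosis was 21.6-fold higher (14.9 to 32.5), Ccne1 of the entry to S phase 6.54-fold (4.80 to 9.06), and Cdk4 of G1 2.28-fold (2.08 to 2.50). The D-type cyclins of G1 were not higher: Ccnd2 was at 0.813 times the Mki67-0 level (0.731 to 0.904) and Ccnd3 at 0.843 (0.772 to 0.921). E2f8 and E2f7, E2F repressors made in S phase, were 80.7-fold (31.1 to 299) and 24.8-fold (11.7 to 63.2) higher, while E2f4, which acts in quiescent cells, was 1.53-fold higher (1.37 to 1.72) and at 1.19 among cells of 6000 to 15000 UMIs. Myc stood at 1.56-fold (1.36 to 1.80) and at 1.12 in that depth range.

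Cell cycle inhibitors moved both ways. Of 19 measured inhibitor and quiescence genes, 5 were higher and 9 lower, with a median log2 ratio of -0.46, and 5 were higher and 1 lower among cells of 6000 to 15000 UMIs. Cdkn2a, which encodes p16 and p19ARF, stood at 0.720 UMIs per 10000 in cycling cells and 0.179 in Mki67-0 cells, 4.02-fold apart (3.31 to 4.89) and 2.31-fold in the depth range. Cdkn2c (p18) was 4.16-fold higher (3.41 to 5.11), Cdkn3, a phosphatase of Cdk2, 14.7-fold (10.7 to 20.8) and Cdkn1a (p21) 1.82-fold (1.63 to 2.02). Cdkn1b (p27), which holds resting T cells in G1, was at 0.482 times the Mki67-0 level (0.434 to 0.534) and at 0.766 in the depth range. Btg1, an antiproliferative factor abundant in resting lymphocytes, was at 6.71 UMIs per 10000 in cycling cells and 20.5 in Mki67-0 cells, a ratio of 0.327 (0.315 to 0.339), and kept to 0.581 in the depth range.

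Each cell's own levels showed how far the classes overlapped. The mitosis list had a median of 70.5 UMIs per 10000 in cycling cells, with quartiles of 32.8 and 112, and a median of 4.14 in Mki67-0 cells, with quartiles of 2.11 and 7.17. The replication list had a median of 47.5 in cycling cells and 9.60 in Mki67-0 cells. Of the members, 20 (4.18%) lay at or below the upper quartile of Mki67-0 cells for mitosis genes and 49 (10.3%) for replication genes. Of the Mki67-0 cells, 88 (5.18%, 4.18 to 6.35) lay at or above the lower quartile of cycling cells on either list, 76 by replication genes and 20 by mitosis genes. The Mki67-0 class thus held some cells with high levels of cycle genes.

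**Figure D2:**
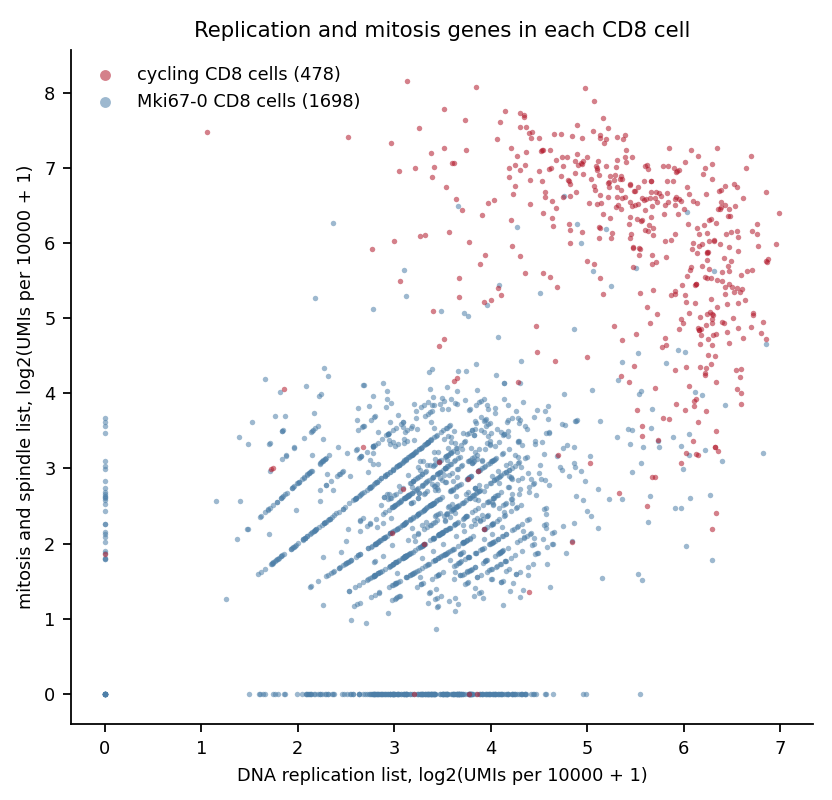
Each point is a CD8 cell, with the summed level of the DNA replication list on the x axis and of the mitosis and spindle list on the y axis, both as log2(UMIs per 10000 + 1). Cycling cells lie above and to the right of most Mki67-0 cells, at list medians of 47.5 and 70.5 UMIs per 10000 against 9.60 and 4.14, and 88 Mki67-0 cells reach the lower quartile of cycling cells on either list.

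Some genes of growth and metabolism were higher in cycling cells. Of 17 glycolysis genes 8 were higher and none lower, with Tpi1 at 2.92-fold (2.68 to 3.20), Pgk1 at 1.87-fold (1.75 to 1.99) and Ldha at 1.68-fold (1.62 to 1.74). Of 20 ribosome biogenesis genes 12 were higher, with the snoRNA-binding protein Gar1 at 2.29-fold (1.92 to 2.73), and of 20 cholesterol synthesis genes 12 were higher, with Idi1 at 2.82-fold (2.26 to 3.53). Of 9 nutrient transporters 5 were higher, among them Tfrc, which imports iron, at 2.59-fold (2.03 to 3.32), and Slc3a2 was lower at 0.628 (0.583 to 0.675) and at 0.750 in the depth range. Among oxidative phosphorylation genes 13 of 84 were higher, a share under that of all genes, and 2 lower, and among genes whose symbols start as proteasome subunits do, 10 of 47 were higher. The highest of those, Psmc3ip at 9.64-fold (6.23 to 15.5), is a partner of recombination and no proteasome subunit. Fewer passed 1.5-fold among cells of 6000 to 15000 UMIs, where 2 of 17 glycolysis, 5 of 19 ribosome biogenesis, 2 of 18 cholesterol synthesis, 3 of 9 transporter, 1 of 82 oxidative phosphorylation and 3 of 47 proteasome genes were higher. Over all genes in that depth range 1036 of 7716 were higher. The shares of glycolysis, cholesterol synthesis, oxidative phosphorylation and proteasome genes were under that of all genes. Those of ribosome biogenesis and transporter genes were above it.

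The main granzymes were within 1.5-fold of their Mki67-0 levels, and 8 other killer genes were lower per 10000. Of 18 measured cytotoxic genes 2 were higher and 8 lower, with a median log2 ratio of -0.56, and 1 was higher and 5 lower of 17 among cells of 6000 to 15000 UMIs, at a median of -0.37. In both counts the lower genes include Gzmd, Gzme and Gzmf, whose UMIs rested on few cells. For comparison, 13.8% of all genes were lower, and 589 of 7716 in the depth range. Gzmb, the granzyme that starts apoptosis, stood at 24.3 UMIs per 10000 in cycling cells and 27.2 in Mki67-0 cells, a ratio of 0.892 (0.873 to 0.912). Gzma stood at 20.4 and 19.0, a ratio of 1.07 (1.04 to 1.10), and at 0.745 in the depth range. Gzmk, a granzyme of effector-memory CD8 cells, was at 0.844 (0.800 to 0.891) and at 0.993 in the depth range. Prf1, the pore-forming perforin, stood at 1.10 UMIs per 10000 in cycling cells and 1.86 in Mki67-0 cells, a ratio of 0.593 (0.538 to 0.653). Nkg7, a granule membrane protein, was at 0.653 (0.639 to 0.668) and Fasl, the death ligand, at 0.556 (0.513 to 0.602), and they were at 0.723 and 0.802 in the depth range, short of 1.5-fold. Gzmc was 2.11-fold higher (1.63 to 2.75), with 9.79% of its cycling UMIs in 1 cell, and Gzmm 1.51-fold (0.904 to 2.51), an interval that includes 1.

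The rare granzymes of the Gzmc cluster rested on few cells. Gzmd had 0 UMIs in cycling cells and 81 in Mki67-0 cells, at least 17.4-fold lower with the same floor, but 1 Mki67-0 cell held 63.0% of them. Gzme had 1 and 54 UMIs, with 83.3% of those in Mki67-0 cells in 1 cell. Gzmf had 64 and 397 UMIs, a ratio of 0.250 (0.189 to 0.327) and of 0.0991 in the depth range, with 35.8% of those in Mki67-0 cells in 1 cell. These neighbouring genes are close in sequence, so reads may have been shared out among them.

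The chemokine Ccl5 had the widest gap in UMIs per 10000 among the lower genes. Ccl5, which draws T cells and myeloid cells and is stored by memory CD8 cells, stood at 47.2 UMIs per 10000 in cycling cells and 191 in Mki67-0 cells, a ratio of 0.247 (0.244 to 0.250), and at 0.502 among cells of 6000 to 15000 UMIs. Ccl4 was at 0.370 (0.352 to 0.388) and at 0.560 in the depth range. Ccl3 was at 0.820 (0.761 to 0.884) and at 0.625 in the depth range (0.561 to 0.696). Of 9 measured cytokine genes none was higher and 3 were lower, among them Ltb, a membrane lymphotoxin, at 0.427 (0.402 to 0.453). Ifng stood at 1.89 UMIs per 10000 in cycling cells and 2.22 in Mki67-0 cells, a ratio of 0.851 (0.787 to 0.919), with 16.2% of its cycling UMIs in 1 cell, and at 0.718 without that cell. Tnf was at 0.905 (0.735 to 1.11), an interval that includes 1, and at 1.42 in the depth range (1.04 to 1.95).

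Some memory and quiescence genes were lower in cycling cells. Of 11 measured genes 5 were lower and none higher, with a median log2 ratio of -0.51, and 4 of 10 were lower in the depth range, at a median of -0.49. The share of all genes that were lower was 13.8%, with 589 of 7716 in the depth range. Il7r, the receptor for the survival cytokine IL-7, stood at 0.650 UMIs per 10000 in cycling cells and 2.61 in Mki67-0 cells, a ratio of 0.250 (0.222 to 0.280), and at 0.455 in the depth range. Tcf7, the TCF-1 factor of stem-like T cells, had 61 UMIs in cycling cells, 23.0% of them in 1 cell, against 326 in Mki67-0 cells, a ratio of 0.290 (0.217 to 0.383). Bcl2, which blocks apoptosis, was at 0.464 (0.393 to 0.546). Outside the lists, the histone demethylase Kdm5b was at 0.102 (0.0519 to 0.183), with 12 UMIs in cycling cells and 182 in Mki67-0 cells. Tcp11l2 was at 0.121 (0.0860 to 0.165), Calcoco1 at 0.132 (0.0687 to 0.232), and Ypel3, linked to growth arrest, at 0.305 (0.280 to 0.333).

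Part of the inhibitory receptors, homing receptors and killer lectins was lower per 10000. Of 15 inhibitory receptor and exhaustion genes 8 were lower and none higher, and 6 of 11 in the depth range. Beside these and the lists below, 13.8% of all genes were lower, and 589 of 7716 in the depth range. Lag3 stood at 0.957 UMIs per 10000 in cycling cells, against 2.24 in Mki67-0 cells, a ratio of 0.427 (0.386 to 0.471) and of 0.419 in the depth range. Tigit was at 0.510 (0.482 to 0.538) and Pdcd1 (PD-1) at 0.606 (0.576 to 0.638), while Tox was at 0.784 (0.691 to 0.889). Of 19 gut homing and residency genes 8 were lower, led by the chemokine receptor Cxcr6 at 0.403 (0.375 to 0.434), and 4 of 17 in the depth range. Of 11 killer lectin receptors 7 were lower (3 of 7 in the depth range), with Klrd1 (CD94) at 0.486 (0.438 to 0.539), and Klrg1 was at 1.33 (1.14 to 1.55).

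Effector transcription factors lay closer to equality. Of 16 measured factors 2 were lower and none higher: Hopx at 0.425 (0.384 to 0.469) and Irf4 at 0.652 (0.537 to 0.790), the second at 1.08 in the depth range. Tbx21 (T-bet) was at 0.840 (0.747 to 0.943), Eomes at 0.909 (0.802 to 1.03) and Runx3 at 0.939 (0.859 to 1.03). Of 12 TCR complex and signalling genes 3 were lower and none higher, with Cd3e at 0.696 (0.673 to 0.720), and none in the depth range. Of 15 interferon response genes 12 were lower, but 1 of 12 in the depth range. Over all genes 13.8% were lower, and 589 of 7716 in the depth range. The 2 of 16 effector factors, and the 1 of 12 interferon genes in the depth range, were thus near the share of all genes. Il2rb, which passes the growth signals of IL-2 and IL-15, was at 0.903 (0.857 to 0.951) and Il2ra at 1.22 (1.08 to 1.37).

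Counted per cell, most genes that were lower per 10000 were as high or higher in a cycling cell. Of the 1266 genes, 1031 had more UMIs per cycling cell than per Mki67-0 cell and 235 had fewer, and over all 9193 genes 53 were lower per cell by 1.5-fold or more. Gzmb averaged 27.0 UMIs per cycling cell and 13.2 per Mki67-0 cell, Gzma 22.7 and 9.26, and Prf1 1.23 and 0.903. Lag3 averaged 1.06 and 1.09, and Cdkn1b 0.990 and 0.898. Ccl5 was lower on this scale too, at 52.5 UMIs per cycling cell and 92.9 per Mki67-0 cell, and so were Il7r at 0.724 and 1.27, Btg1 at 7.46 and 9.98, Tcf7 at 0.128 and 0.192, and Ccl4 at 4.32 and 5.10. Of these, Ccl5, Il7r and Tcf7 were below by 1.5-fold, as were Kdm5b at 0.0251 and 0.107 and Pik3ip1, an inhibitor of PI3 kinase, at 0.0690 and 0.118. All 52 mitosis and 50 replication genes were higher per cell by 1.5-fold or more, but so were 8003 of all 9193 genes.

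**Figure D3:**
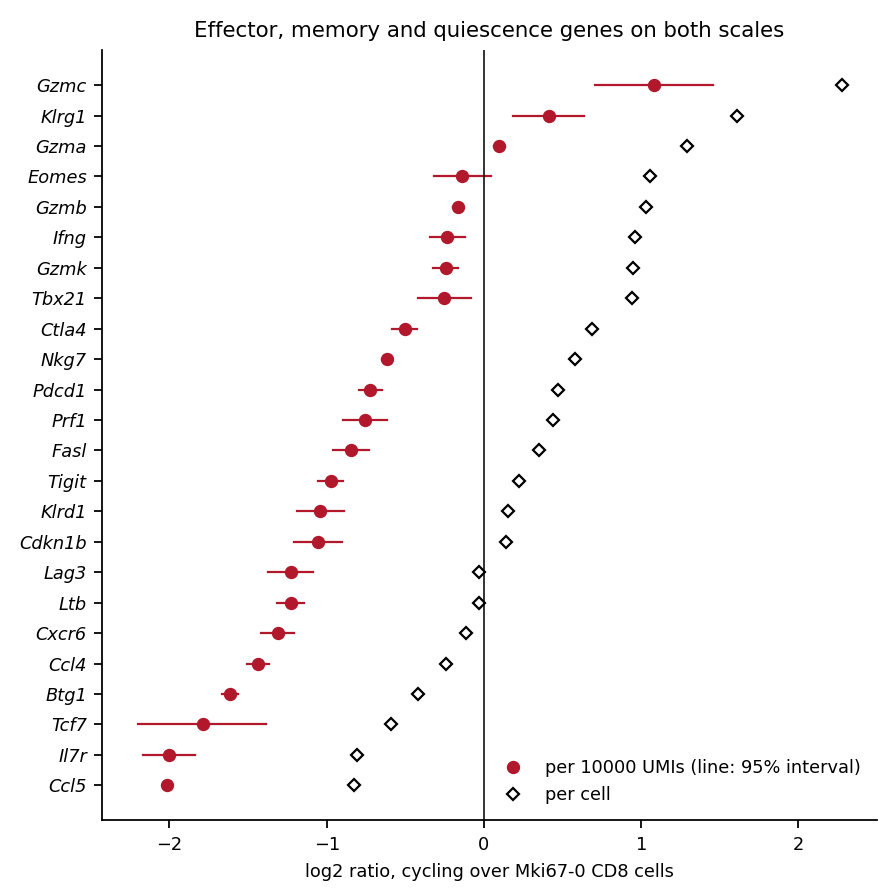
Log2 ratio of cycling over Mki67-0 CD8 cells for 24 effector, memory and quiescence genes, as UMIs per 10000 UMIs (filled, with 95% intervals) and as UMIs per cell (open). Every gene lies 1.19 further right per cell, and 8 of the 24 remain below 0 on that scale, with Ccl5 and Il7r farthest.

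Levels differed by the number of Mki67 UMIs of a cell. From cells with 0 UMIs through 1, 2 to 4, 5 to 9 and 10 or more (1698, 215, 189, 171 and 118 cells), Top2a stood at 0.327, 1.04, 3.39, 6.49 and 8.54 UMIs per 10000. Ccl5 stood at 191, 109, 60.4, 46.8 and 33.8, and Il7r at 2.61, 1.48, 0.762, 0.550 and 0.652. Mcm5 was highest at 2 to 4 Mki67 UMIs, with 1.94 per 10000, against 1.33 at 10 or more. Gzmb stood at 27.2, 25.7, 27.7, 20.8 and 24.7 and Gzmk at 4.57, 3.64, 3.84, 4.08 and 3.61, with no one direction. Prf1 stepped down at each range, with 1.86, 1.58, 1.30, 1.05 and 0.961. The median depth of these cells was 4302.5, 5732, 8190, 11217 and 12253 UMIs, so depth changes along with Mki67, and its part in these levels was not tested.

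**Figure D4:**
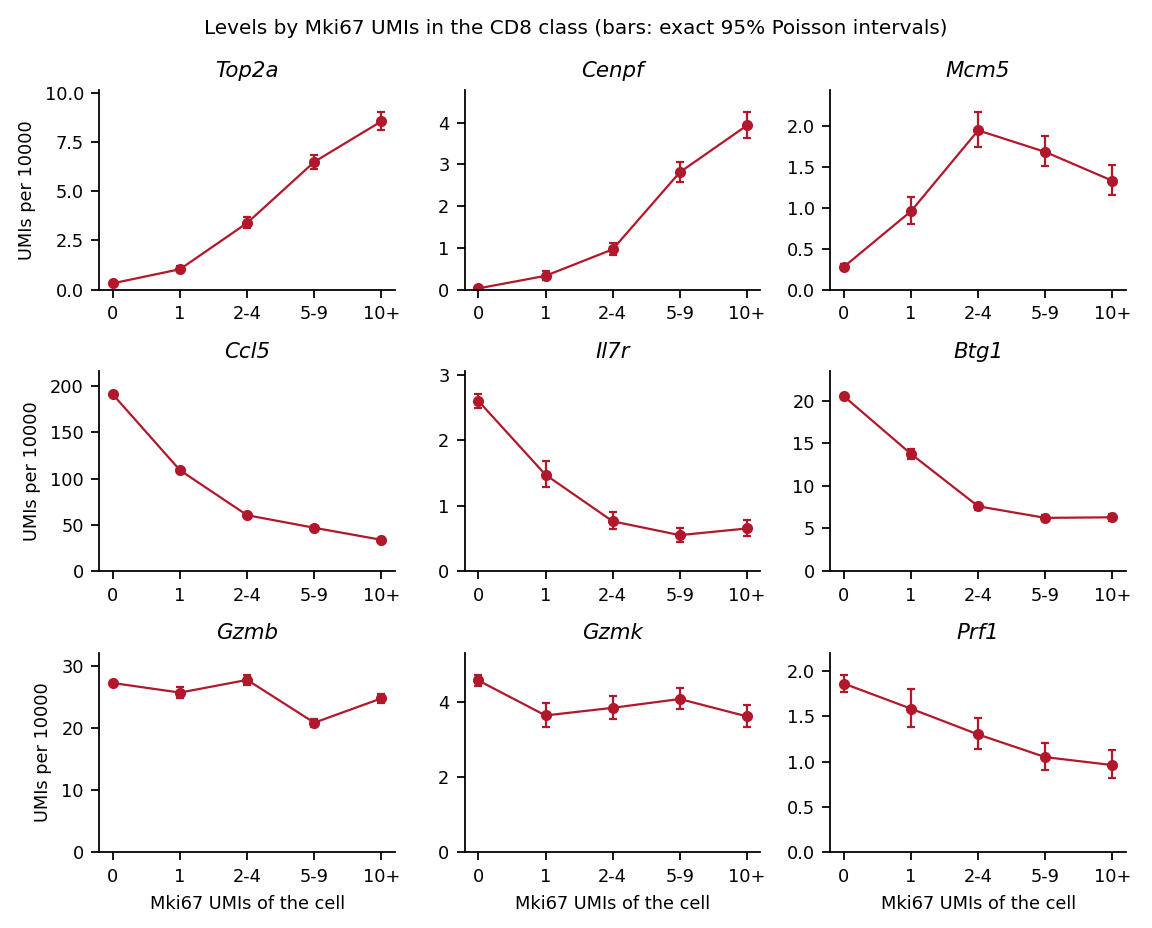
UMIs per 10000 of 9 genes in CD8 cells grouped by their Mki67 UMIs (x axis), with exact Poisson intervals. Top2a and Cenpf are higher at each range, Mcm5 is highest at 2 to 4 UMIs, Ccl5, Il7r and Btg1 are lower beyond 0, and Gzmb and Gzmk stay between 20.8 and 27.7 and between 3.61 and 4.57.

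The members differed in their balance of mitosis and replication genes, while their place in the cycle was not measured. The share of mitosis genes among the UMIs of both cycle lists in a cell had a median of 60.3% and ran through 0 to 100%. All members were included whatever their number of list UMIs, so extreme shares can rest on few UMIs. The members were split at 42.9% and 71.5% into ranges of 160, 159 and 159 cells, with 21 and 33 members within 2 points of a limit, so these are ranges and not types. Their median depths were 11217, 10182 and 9055 UMIs from low to high share. Eomes, a factor of effector and memory CD8 cells, was at 1.08 UMIs per 10000 at high share and 0.465 at low share, 2.31-fold apart (1.78 to 3.02). Klf2, a quiescence factor, was 2.03-fold higher at high share (1.76 to 2.34). Gzmk was 1.62-fold higher (1.46 to 1.80), Btg1 1.75-fold (1.61 to 1.90) and Il7r 1.66-fold (1.29 to 2.14). Ldha was lower at high share, at 0.574 (0.538 to 0.612), with Cdk4 at 0.407 (0.342 to 0.482) and Cdkn1a at 0.416 (0.333 to 0.517). Prf1 at 0.860 (0.701 to 1.05) and Pdcd1 at 0.907 (0.811 to 1.01) had intervals that include 1.

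Cycling CD4 cells of the same colons had cycle genes at near levels and other effector genes. Per 10000, Top2a stood at 6.12 in cycling CD8 cells and 6.46 in cycling CD4 cells, Pcna at 1.59 and 1.54, and Hist1h1b at 5.70 and 5.61. The mitosis list median over Mki67-0 cells of the same class was 4.62 in CD8 and 5.29 in CD4 cells, and the replication list median 2.23 and 2.22. Perforin was 11.4-fold higher in cycling CD8 cells (7.92 to 16.9), Gzmb 6.49-fold (6.12 to 6.89), Gzmk 4.48-fold (3.95 to 5.10) and Ly6c2, a marker of memory CD8 cells, 37.4-fold (26.9 to 53.5). Csf2 (GM-CSF) was at 0.0984 times its level in cycling CD4 cells (0.0707 to 0.134), Icos at 0.475 (0.439 to 0.513) and Il7r at 0.350 (0.306 to 0.400), while Ifng was at 1.03 (0.932 to 1.15). The lineages differed in killer genes among Mki67-0 cells too. With all UMIs, Prf1 was found in 46.1% of Mki67-0 CD8 and 5.77% of Mki67-0 CD4 cells, Gzmb in 80.3% and 34.0%, and Gzmk in 68.2% and 16.9%. Among cycle genes Cdkn2a was 2.65-fold higher in cycling CD8 cells (2.09 to 3.38) and Cdkn1a was at 0.616 (0.556 to 0.683). In the CD4 class Ccl5 over Mki67-0 cells stood at 0.249, against 0.247 in the CD8 class, and Lag3 at 0.371, against 0.427.

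Many cycling cells shared a clone with cells without Mki67. Cells with 1 productive TRB chain were joined into clonotypes by their TRA and TRB CDR3 sequences and segments, the CDR3 being the stretch that contacts antigen. A clonotype was known for 307 of 478 cycling cells (64.2%, 59.7 to 68.5) and 850 of 1698 Mki67-0 cells (50.1%, 47.7 to 52.5). Expanded clonotypes, of 2 or more cells, held 247 of the 307 cycling cells, or 80.5% (75.6 to 84.7), and 690 of the 850 Mki67-0 cells, or 81.2% (78.4 to 83.8). Of the 307 cycling cells, 244 (79.5%, 74.5 to 83.9) shared their clonotype with a Mki67-0 CD8 cell and 1 (0.326%) with a CD4 class cell. In the other direction, 571 of 850 Mki67-0 cells (67.2%, 63.9 to 70.3) shared theirs with a cycling cell. The chance of drawing the same clonotype from a pair of cells was 5.31% for cycling cells and 5.75% for Mki67-0 cells, and 5.11% for 1 cell of each class. Without the largest clonotype it was 3.19% and 2.07%.

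More TRA chains were seen in cycling cells. With a known clonotype, 22.1% of cycling cells had 2 or more productive TRA chains (17.6 to 27.2) and 10.1% of Mki67-0 cells (8.17 to 12.3). Their TRB contigs held a median of 19 UMIs in cycling cells and 11 in Mki67-0 cells, and the part of this depth in the count of chains was not tested. The segment TRBV13-1, carried by the 2 largest clones, was in 36.2% of cycling cells (30.8 to 41.8). In Mki67-0 cells it was in 31.8% (28.6 to 35.0). TRBV4, carried by the third largest clone, was in 8.47% (5.61 to 12.2) and 13.9% (11.6 to 16.4). These shares count every cell of a clone, so they depend on clone size. Counted by clonotype, TRBV13-1 was in 10.57% of cycling and 12.03% of Mki67-0 clonotypes, and TRBV4 in 9.76% and 9.02%. Both differences by clonotype had the opposite direction to those by cell, and the clonotype intervals overlapped.

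The largest clones differed in how many of their cells were cycling. Their CDR3 sequences are shown since a clone is known by them, 5′ to 3′ on the coding strand, from the deposited contigs (TRB on chromosome 6, TRA on chromosome 14). Capitals mark bases that match neither the germline V nor J segment, which are D bases or were added at joining.
Clone 1 TRB: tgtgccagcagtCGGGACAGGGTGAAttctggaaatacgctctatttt
Clone 1 TRA: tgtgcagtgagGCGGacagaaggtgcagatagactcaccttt
Clone 2 TRB: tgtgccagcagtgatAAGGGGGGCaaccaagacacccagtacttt
Clone 2 TRA, TRAV6D-7: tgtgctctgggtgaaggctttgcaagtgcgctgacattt
Clone 2 TRA, TRAV8-1: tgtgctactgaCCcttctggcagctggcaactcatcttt
Clone 3 TRB: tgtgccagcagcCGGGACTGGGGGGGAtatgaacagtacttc
Clone 3 TRA: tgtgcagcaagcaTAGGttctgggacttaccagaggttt

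Clones 1 and 2 used the same V segment, TRBV13-1, with TRBJ1-3 and TRBJ2-5, and their CDR3s of 48 and 45 bases had 14 and 9 junction bases. Clone 3 joined TRBV4 to TRBJ2-7 in 42 bases, 15 of them at the junction. Clone 1 held 259 CD8 cells, of which 55 were cycling (21.2%, 16.4 to 26.7). Clone 2 held 87, of which 38 were cycling (43.7%, 33.1 to 54.7), and clone 3 held 80, of which 6 were cycling (7.50%, 2.80 to 15.6). The median depth of their cells was 4973, 7789 and 5180 UMIs, in the order of the clones. With each cell thinned to 2000 UMIs the shares were 8.63% (5.49 to 12.8), 9.41% (4.15 to 17.7) and 5.13% (1.41 to 12.6). These rest on 22, 8 and 4 cycling cells, too few for their order to be detectable. Per 10000 UMIs of all CD8 cells of each clone, replication genes stood at 31.5, 42.3 and 17.8 and mitosis genes at 32.2, 49.3 and 19.8. Mki67 stood at 2.69, 3.51 and 2.25, so clone 2 was highest and clone 3 lowest on each. The part of depth in the order of the shares was not tested. A clonotype was the full set of chains seen, so clone 2 held only cells in which both of its TRA chains were captured. Clones 1 and 3 rested on 1 TRA chain each. Cells with 2 or more TRA chains were more frequent among cycling cells (22.1%) than among Mki67-0 cells (10.1%). The part of this rule in the share of clone 2 was not tested, and the thinning was of RNA counts and not of contigs. Over the 20 clones of 10 or more CD8 cells, which held 740 cells and 182 cycling ones, the cycling share ran over 0 to 43.7% with a median of 26.6%, and 19 held at least 1 cycling cell. The clone with none had 10 cells, which allows up to 30.8%.

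**Figure D5:**
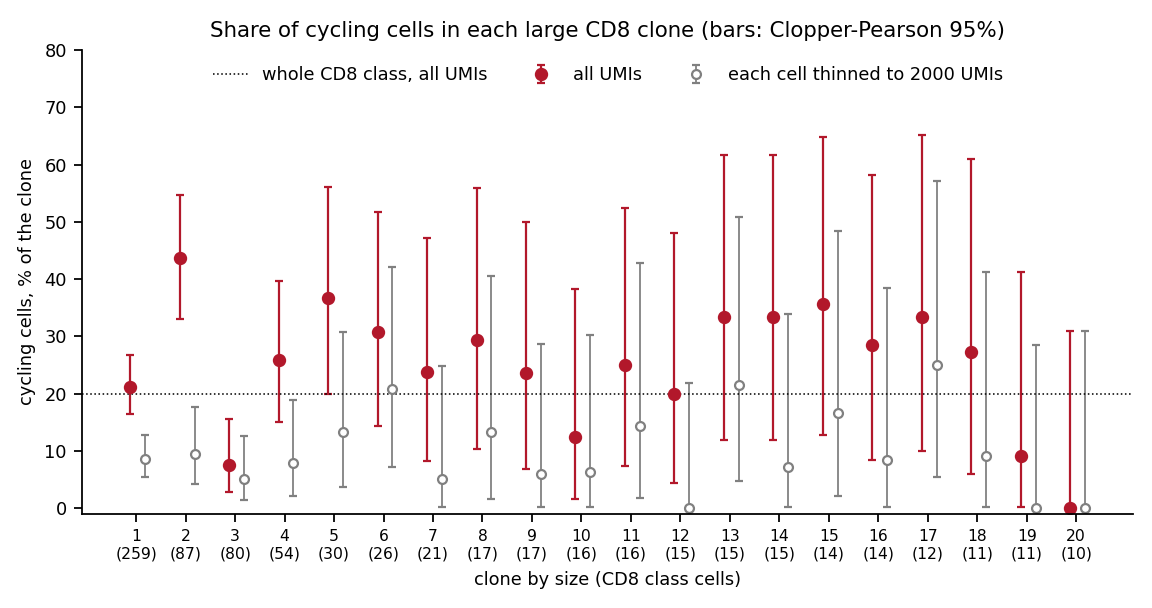
Cycling cells as a share of each CD8 clone of 10 or more cells, with Clopper-Pearson intervals, from all UMIs (filled) and after each cell was thinned to 2000 UMIs (open). From all UMIs clone 2 stands at 43.7% and clone 3 at 7.50%, against 19.99% in the whole CD8 class, and after thinning the intervals of the clones overlap. Clone 2 holds only cells in which both of its TRA chains were captured.

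The differences from Mki67-0 cells were then taken within clone 1, within clone 2 and over the other clonotypes pooled. The pool, of 214 cycling and 629 Mki67-0 cells, mixes many clonotypes, so its ratios can also hold differences between clones, which were not tested. Ccl5 in cycling cells was at 0.176 times its Mki67-0 level in clone 1 (0.169 to 0.184), 0.253 in clone 2 (0.235 to 0.271) and 0.247 over the other clonotypes (0.242 to 0.252). Il7r was at 0.283 (0.212 to 0.374), 0.304 (0.189 to 0.480) and 0.260 (0.215 to 0.312), and Cdkn1b at 0.462, 0.380 and 0.486. Cdkn2a was higher in each, at 7.07-fold (3.27 to 17.5), 4.40-fold (1.02 to 39.7) and 3.32-fold (2.57 to 4.32). Killer genes were less alike. Gzmb was at 0.571 in clone 1 (0.531 to 0.613), 0.595 in clone 2 (0.541 to 0.654) and 0.877 in the other clonotypes (0.851 to 0.905). Prf1 was at 0.353 in clone 1 (0.208 to 0.576), 0.954 in clone 2 (0.493 to 1.90) and 0.552 in the others (0.486 to 0.626). Ifng was at 0.278 in clone 1 (0.173 to 0.430), 1.05 in clone 2 (0.667 to 1.67) and 0.789 in the others (0.708 to 0.879). Il2ra was at 0.329 in clone 1 (0.0968 to 0.895) and 0.257 in clone 2 (0.0893 to 0.660), from 5 and 7 cycling UMIs, against 1.29-fold in the others (1.11 to 1.51).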

How the data were processed

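The RNA table holds whole UMI counts for each gene and barcode, not normalized, as deposited, and the TCR table the deposited counts of UMIs per contig. The authors used Cell Ranger and mm10, per the submitters' processing notes, with no version in the sources used here. Barcodes with at least 500 genes and at most 10% mitochondrial UMIs were kept, 5333 of 5348, with 2549 to 39138 UMIs (median 4800). No doublet caller was run. UMIs were summed over a class of cells. Ratios carry exact conditional binomial, levels Poisson and shares Clopper-Pearson intervals (95%), for counting error only. No test was made, since cells of a pool are no replicates. The computation was checked on simulated data. The members and gene lists were chosen with earlier results of these data known. Named genes were the 15 highest and 15 lowest ratios by the bound nearest 1, the 15 highest outside the cycle lists, up to 6 members of each list and any member of the cyclin, cytotoxic, cytokine, inhibitory receptor, effector factor and memory lists. Other genes named, and those set across depths, cycle ranges, lineages and clones, were chosen after values were seen, as was the range of 6000 to 15000 UMIs. Alternatives changed the Mki67 limit, the marker, depth, UMI minimum, clonotype rule and cells. Python 3.11.15 was used, along with numpy 2.4.6, pandas 2.3.3, scipy 1.17.1 and, for plots, matplotlib 3.10.9. Thinning used seed 1.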

Additional observations from a re-analysis of the deposited data

Results flagged for a closer look

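For 2 genes the ratio of cycling over Mki67-0 cells passed 1.5-fold in opposite directions in the CD8 and CD4 classes, and the difference between the classes was not tested. Ccl1, a chemokine of activated T cells, had a log2 ratio of 1.33 in the CD8 class and -1.36 in the CD4 class. It had 253 UMIs in 20 cycling CD8 cells and 156 in 33 Mki67-0 CD8 cells, with 53.0% of the first in 1 cell, and without that cell its CD8 ratio was 1.19. Il1rl1, the receptor for IL-33, had a log2 ratio of 1.18 in the CD8 class, from 35 and 24 UMIs, and -1.15 in the CD4 class. Without the cell with the most UMIs of it, its CD8 ratio was 2.14.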

How the results depend on the processing

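No paired analysis was possible because the pool is 1 sample, and for the same reason no replicate could be left out. The cycling share of the CD8 class, 19.99% as reported, was 12.1% with at least 5 Mki67 UMIs, 29.0% with at least 1, 7.12% with classes set on 2000 UMIs and 41.0% among cells of 6000 to 15000 UMIs. The 1522 higher and 1266 lower genes were 2747 and 2221 with no UMI minimum, 953 and 717 with at least 200 UMIs, and 743 and 742 within the largest clonotype, and the lower genes were 813 with 1 cell per clonotype and 589 at 6000 to 15000 UMIs. The replication median was 1.27 with classes set on 2000 UMIs and 1.77 in the depth range, and the mitosis median 3.01 with classes set on 2000 UMIs and 3.97 with Top2a in place of Mki67. The cytotoxic median was -0.64 with at least 5 Mki67 UMIs, -0.25 with at least 1, -0.37 in the depth range and -0.81 within the largest clonotype. The memory median was -0.27 with classes set on 2000 UMIs and -0.82 with 1 cell per clonotype. With TRB alone, 88.8% of cycling cells were in expanded clonotypes and 85.1% shared one with Mki67-0 cells, and the shared figure was 72.2% in the depth range. Among named genes past 1.5-fold and list medians past it, the log2 values that turned direction were Gzmd at 0.51 and Gzme at 0.71 (at least 1 Mki67 UMI), Ccl1 at -1.20 and Sqle at -0.038 (classes set on 2000 UMIs), Gzmc at -0.27 (1 cell per clonotype), Id3 at 1.58 and Irf4 at 0.12 (depth range), and the transporter median at -0.13, Egr1 at 0.25 and Slamf6 at 0.11 (largest clonotype). Values short of 1.5-fold also turned, such as Gzma, at 0.10 as reported and -0.42 in the depth range. The causes were not tested. Of 195 named genes past 1.5-fold, 81 were under it in at least 1 alternative, 60 of them in the depth range.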
